A study of Sus scrofa with 24 samples.

Results

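The genes described here are 10 components of adenylyl cyclase and protein kinase A (PKA) signalling in the hippocampus of 14-day-old piglets. They were taken by gene symbol: the adenylyl cyclases ADCY1, ADCY2, ADCY3, ADCY5, ADCY8 and ADCY9, the PKA catalytic subunits PRKACA and PRKACB, the PKA regulatory subunit PRKAR1B, and the transcription factor CREB1. All 10 had an entry among the 38882 genes counted, and 9 of them were among the 16326 genes that reached 1 CPM (reads of a gene scaled by its library's TMM-adjusted total) in at least 3 libraries and were tested. The exception was PRKACB. Poly(A) RNA was sequenced from 24 piglets of a PIC Camborough dam and PIC 359 sire cross, 6 in each of 4 groups that crossed size at birth with formula. Piglets were small (SGA) or appropriate (AGA) for gestational age, and received a control formula (CON) or a formula with hydrolyzed fat (HF), in which part of the triglyceride was replaced by free fatty acids, monoacylglycerol and lecithin. Each SGA piglet had a sex-matched AGA littermate on the same formula, so that size was compared within 12 litters while diet was compared between 6 CON and 6 HF litters. Litters arrived in 2 cohorts. SGA and AGA were set by weight at birth in naturally delivered litters, and hippocampal tissue was sequenced rather than sorted cells.

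Adenylyl cyclases make cyclic AMP (cAMP) from ATP when a receptor activates the stimulatory G protein, and several isoforms also respond to calcium. Cyclic AMP binds the regulatory subunits of PKA and frees the catalytic subunits, which phosphorylate receptors, channels and nuclear factors such as CREB. In the hippocampus, calcium-stimulated cyclases, PKA and CREB are known for their part in long-lasting synaptic strengthening and memory.

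Libraries held 6017336 to 9284355 reads on listed genes (median 7346072), so that 3 reads corresponded to 0.323 to 0.499 CPM. The summed CPM of neuronal markers ranged from 1450 to 3194 and that of oligodendrocyte markers from 10132 to 22368. Markers of dentate granule and pyramidal cells summed to 68.5 to 96.2 CPM, with 5 of 7 tested, SPINK8 without an entry and ZBTB20 under the filter. By marker sums or by correlation with the other libraries, 3 libraries were set apart. AGA CON replicate 2 had the lowest neuronal (1450 CPM) and excitatory neuronal (5093 CPM) sums and the highest astrocyte sum (12411 CPM). SGA CON replicate 6 had the highest excitatory neuronal sum (8345 CPM), with 8274 CPM next in SGA CON replicate 4. The median correlations of AGA CON replicate 2 and SGA CON replicate 6 with the other libraries were 0.965 and 0.967, the lowest of all. AGA HF replicate 4 was next to AGA CON replicate 2 in its neuronal (1783 CPM), excitatory neuronal (5573 CPM) and astrocyte (12057 CPM) sums. The results on PRKACA, ADCY3 and the named pathway calls are given with and without these libraries. Pituitary markers summed to as much as 367 CPM among SGA HF libraries, against at most 36.4 CPM in AGA CON. The highest pituitary sums in AGA HF and SGA CON were 35.4 and 32.2 CPM, and the part of this signal in the results was not tested. In bulk tissue, fewer cells of a type and less RNA per cell cannot be told apart.

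Compared per length of the annotated exons, the PKA subunits PRKAR1B and PRKACA were the most abundant of the 10 transcripts, and the adenylyl cyclases spanned a wide range. PRKAR1B, the type I beta regulatory subunit typical of neurons, averaged 183 ± 26.1 CPM per kb (SD, n = 24). PRKACA, the alpha catalytic subunit, averaged 176 ± 34.0 CPM per kb, which differed from PRKAR1B by less than the spread between piglets. Next came ADCY1, a neuronal cyclase stimulated by calcium and calmodulin, at 38.2 ± 6.92 CPM per kb, and ADCY5, a calcium-inhibited cyclase best known from the striatum, at 31.7 ± 2.38 CPM per kb. ADCY2, a cyclase that G protein beta-gamma subunits can stimulate, averaged 22.5 ± 3.03 CPM per kb. ADCY3, known from olfactory neurons and primary cilia, averaged 10.4 ± 0.866 CPM per kb. ADCY1 and ADCY5 overlapped within their spread, as did PRKAR1B and PRKACA, while ADCY2 and ADCY3 did not overlap in any of the 24 libraries (16.6 to 28.0 against 7.74 to 12.4 CPM per kb). The remaining 4 genes lay at or under 1 CPM per kb on average: ADCY8, the other classical calcium-stimulated cyclase, at 0.872 ± 0.266, PRKACB, the beta catalytic subunit, at 0.548 ± 0.498, the broadly expressed cyclase ADCY9 at 0.520 ± 0.258, and CREB1 at 0.471 ± 0.306. These 4 overlapped in range over the 24 libraries, with the highest mean for ADCY8, and all lay below ADCY3.

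The gene models behind these values differed in completeness, and coordinates are those of the Sscrofa10.2 assembly in the deposited tables. PRKACA (gene ID 397652) lies on chromosome 2, 65350544 to 65371236, plus strand, with 11 exons over 2663 nt. PRKAR1B (100522128) lies on chromosome 3, 190914 to 227592, minus strand, with 7 exons over 1892 nt. Over the 24 libraries PRKACA collected 84299 reads and PRKAR1B 62119. ADCY1 (100624934) lies on chromosome 18, 54887477 to 54978872, minus strand, with 18 exons over 10885 nt. ADCY5 (100155970) lies on chromosome 13, 146590223 to 146680465, plus strand, with 24 exons over 5307 nt. ADCY1 is the longest model of the 10, and its 75156 reads were second only to those of PRKACA. ADCY2 (100517503) lies on chromosome 16, 80359861 to 80498999, minus strand, with 21 exons over 3219 nt. ADCY3 (100514402) lies on chromosome 3, 121107146 to 121199908, plus strand, with 22 exons over 4081 nt. These cyclases were read 13094 and 7672 times in all.

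The 4 low genes rested on few reads, and some had short models. PRKACB (100623628), on chromosome 6, 119719887 to 119778443, minus strand, was represented by 6 exons over 510 nt and had 51 reads in the 24 libraries, with none in 5 of them. CREB1 (100736562), on chromosome 15, 122245218 to 122278060, plus strand, was represented by 5 exons over 1480 nt and had 124 reads. ADCY9 (100625423), on chromosome 3, 39139208 to 39228426, plus strand, was represented by 7 exons over 3086 nt and had 294 reads. Reads outside the annotated exons were not counted, so that the low values of PRKACB, CREB1 and ADCY9 cannot be read as low expression. ADCY8 (100622999), on chromosome 4, 9777859 to 9968857, plus strand, has 12 exons over 3021 nt and had 479 reads. PRKACB averaged 0.281 CPM in AGA CON, 0.371 in AGA HF, 0.069 in SGA CON and 0.397 in SGA HF piglets, and was not tested. CREB1 reached 1 CPM in 4 libraries and ADCY9 in 17, while ADCY8 did so in all 24.

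**Figure D1:**
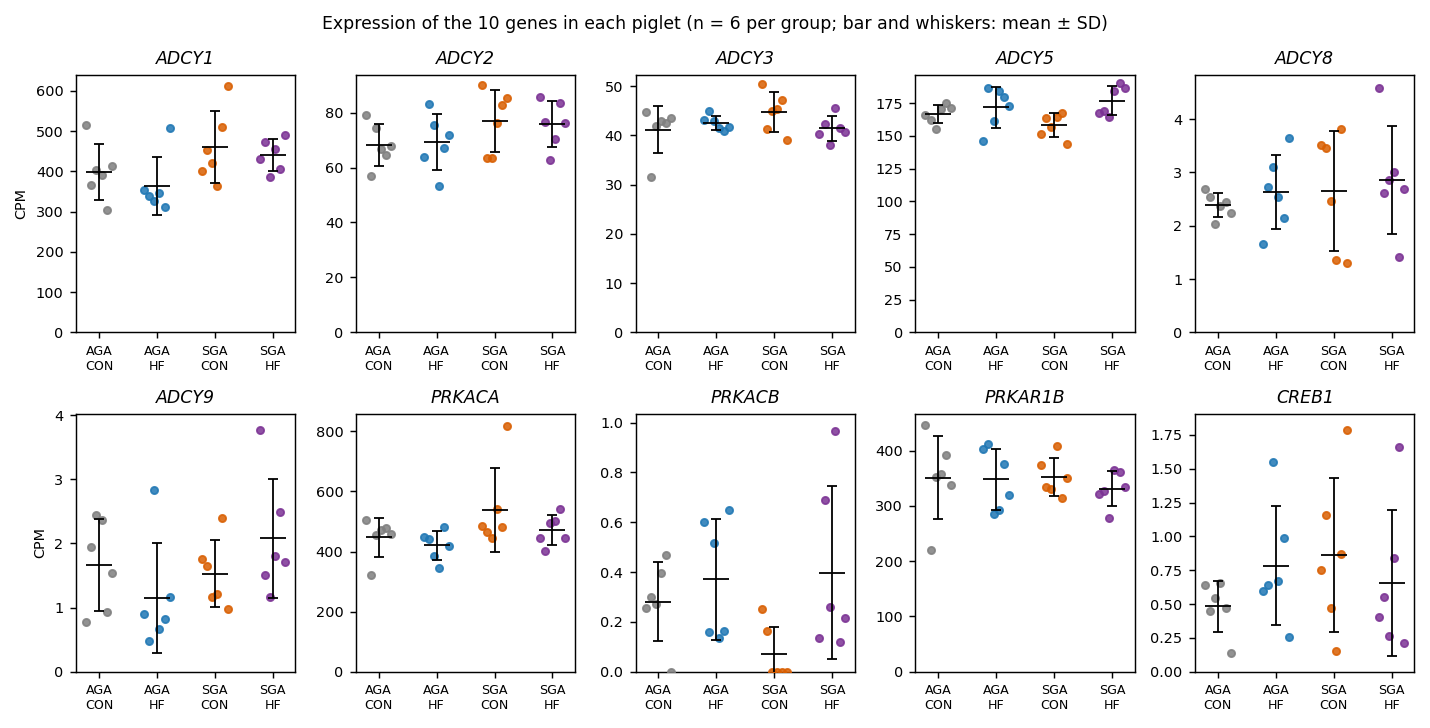
Expression of each gene in CPM (linear axis from 0) in the 24 piglets, by group, with the mean and SD of 6 piglets. PRKACA in SGA CON replicate 6 (817 CPM) and in AGA CON replicate 2 (320 CPM) lie away from their groups, and the 4 low genes scatter between 0 and 4.58 CPM.

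The variation between piglets also differed among the well-counted genes. ADCY5 varied least, from 144 to 191 CPM with a coefficient of variation of 7.52%, and ADCY3 ranged from 31.6 to 50.4 CPM (8.33%). ADCY2 (13.4%), PRKAR1B (14.3%), ADCY1 (18.1%) and PRKACA (19.3%) varied more, and the median over all tested genes was 19.5%. It was 30.5% for ADCY8, 49.7% for ADCY9 and 65.1% for CREB1.

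Within the adenylyl cyclase family, ADCY1, ADCY5 and ADCY2 together made up most of the reads per length. ADCY1 contributed 34.4 ± 3.96% of the summed CPM per kb of the 10 annotated cyclases (SD, n = 24 piglets), ADCY5 28.9 ± 2.93%, ADCY2 20.4 ± 2.05% and ADCY3 9.46 ± 0.919%. ADCY6 (2.97%) and ADCY4 (2.29%) came next, while ADCY8, ADCY9, ADCY7 and the soluble cyclase ADCY10 were each under 1%. ADCY1 had the largest mean share in all 4 groups, from 31.7 ± 4.00% in AGA HF to 36.8 ± 4.92% in SGA CON (n = 6 each). ADCY5 took from 26.2 ± 2.64% in SGA CON to 31.0 ± 3.03% in AGA HF. Among the PKA subunits with an entry, PRKAR1B held 45.8 ± 3.67%, PRKACA 44.0 ± 3.71% and the ubiquitous type I alpha subunit PRKAR1A 9.61 ± 1.73%, with PRKAR2A, PRKX and PRKACB each under 1%. PRKAR2B had no entry in the count tables and is not part of these shares. Reads outside the annotated exons were not counted, so that the low shares of PRKACB and ADCY9 cannot be read as low expression.

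**Figure D2:**
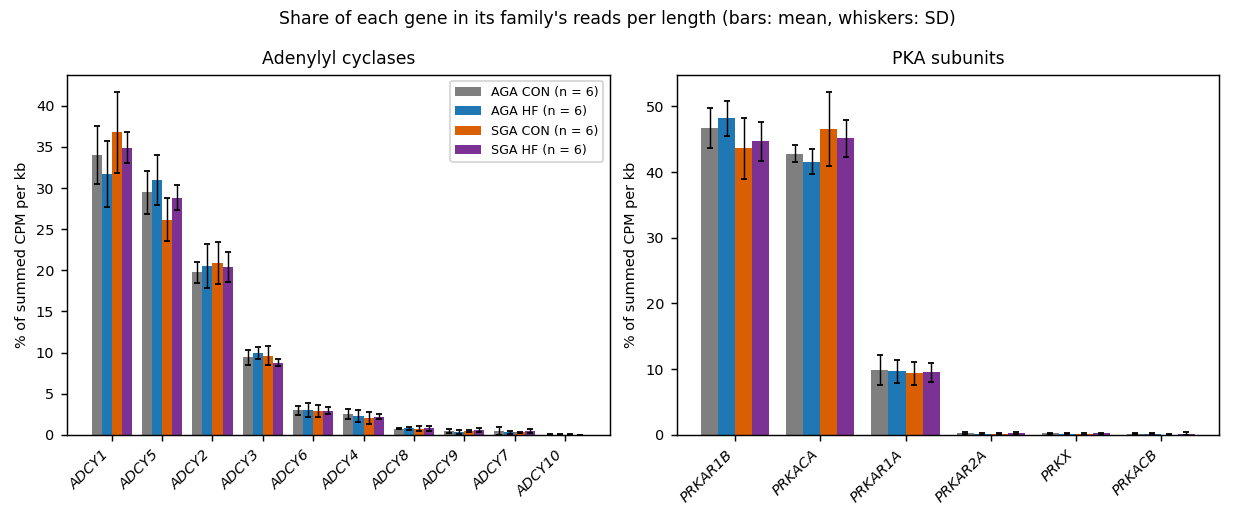
Share of each gene in the summed CPM per kb of the annotated adenylyl cyclases (left) and PKA subunits (right), in percent, as mean and SD of 6 piglets per group. ADCY1, ADCY5 and ADCY2 lead in every group, and PRKAR1B and PRKACA take similar shares of the PKA subunits.

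Size at birth was addressed first, as SGA against AGA piglets. PRKACA and ADCY1 were higher in SGA piglets on average, but none of the 9 tested genes passed the threshold of the main fit, an edgeR quasi-likelihood model with sex and 5 surrogate variables in which a gene was called at an adjusted p (false discovery rate, FDR, over all genes and contrasts) under 0.4, the threshold of the study's heat map. By that rule 0.478% of all tested genes were called for size, and the smallest adjusted p among the 9 was 0.506. At an unadjusted p under 0.05 the count was 1 of 9, against 10.6% of all tested genes. The median log2 fold change was 0.06 over the 9 genes and -0.0023 over all tested genes.

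PRKACA gave the smallest p for size. In AGA CON piglets it ranged from 320 to 504 CPM (median 466) and in SGA CON piglets from 445 to 817 CPM (median 483). On the HF formula its range was 345 to 481 CPM in AGA (median 431) and 403 to 541 CPM in SGA piglets (median 470). The groups overlapped, and the SGA CON mean of 539 ± 140 CPM (SD, n = 6) carried the single value of 817 CPM. The fitted log2 fold change was 0.12 ± 0.04 (SE, edgeR unadjusted p = 0.0036, adjusted p = 0.506), a fold of 1.09. Without AGA CON replicate 2 the adjusted p was 0.298 (log2 fold change 0.13), and without SGA CON replicate 6 it was 0.274 (0.14), both past the threshold. In those fits 2.35% and 2.51% of all tested genes were called. Without AGA HF replicate 4 it was 0.13 and did not pass (adjusted p = 0.478, with 0.792% of all tested genes called). DESeq2 also called it (adjusted p = 0.313, with 1.29% of all genes called), as did an adjustment over the size contrast alone (adjusted p = 0.232, with 7.35% called). With the litter as a block, the log2 fold change was 0.20 ± 0.08 (adjusted p = 0.522, 0 of the 9 genes called against 2.57% of all).

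Littermates gave a direct view of the same question. For each litter the difference in log2(CPM + 1), with a pseudocount of 1 CPM, was taken as SGA minus AGA, and all sign patterns over the 12 litters were used as an exact two-sided sign-flip test. ADCY1 differed by 0.25 ± 0.31 (SD, n = 12 litters), higher in the SGA littermate in 9 of 12 litters (exact p = 0.0234, adjusted p = 0.310). PRKACA differed by 0.21 ± 0.30, higher in 8 of 12 litters (exact p = 0.0313, adjusted p = 0.338). These were the 2 of 9 genes under an adjusted p of 0.4, a level that 12.1% of all tested genes reached, 6.36% with SGA higher and 5.75% with SGA lower. ADCY2 differed by 0.15 ± 0.24, also higher in 9 of 12 litters, and did not pass (exact p = 0.0537, adjusted p = 0.412). At least 9 of 12 litters were higher in SGA for 12.3% of all tested genes. The other 6 tested genes had exact p values from 0.266 to 0.841. Over all tested genes the median littermate difference was 0.0113, and 53.7% of genes were higher in SGA littermates on average.

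These littermate calls depended on single litters. Leaving out each litter in turn left the difference of ADCY1 between 0.20 and 0.30 with exact p values from 0.00586 to 0.0469, and that of PRKACA between 0.15 and 0.24 with exact p values from 0.0166 to 0.0625. Without the litter of AGA CON replicate 2 (pair 4) the exact p was 0.0400 for ADCY1 (adjusted p = 0.425) and 0.0625 for PRKACA (adjusted p = 0.477), and without that of SGA CON replicate 6 (pair 12) it was 0.0469 (adjusted p = 0.429) and 0.0625 (adjusted p = 0.468). Neither gene then passed, nor did they when litter pair 7 (that of AGA HF replicate 4), 9 or 10 was left out. Without pair 3, PRKACA and ADCY2 passed and ADCY1 did not, and without pair 5, ADCY1 and ADCY2 passed and PRKACA did not. Both genes and ADCY2 passed without pair 6. Within cohorts, ADCY1 differed by 0.17 in the first and 0.32 in the second, and PRKACA by 0.11 and 0.30.

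**Figure D3:**
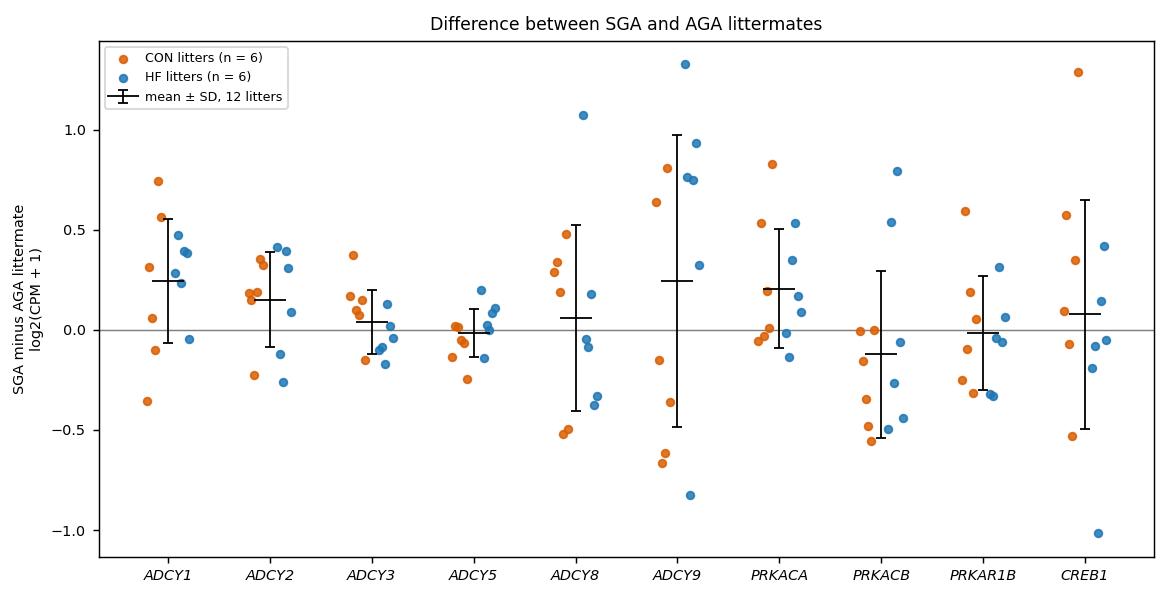
Difference in log2(CPM + 1) between the SGA and the AGA piglet of each litter, with CON litters in orange, HF litters in blue and the mean and SD of 12 litters in black. For ADCY1 and ADCY2, 9 of 12 points lie above 0, and for PRKACA 8 do, while ADCY5 ranges from -0.25 to 0.20 and ADCY3 from -0.17 to 0.37.

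For ADCY1 the size estimate depended on the surrogate variables. AGA CON piglets ranged from 304 to 514 CPM (median 398) and SGA CON piglets from 364 to 612 CPM (median 438), while on HF the range was 312 to 507 CPM in AGA (median 343) and 386 to 491 CPM in SGA piglets (median 442.5). Among HF piglets 5 of the 6 AGA values lay below every SGA value, and AGA HF replicate 6 lay above them all. The log2 fold change was 0.07 ± 0.08 (edgeR adjusted p = 0.915) with 5 surrogate variables and 0.24 ± 0.08 with the litter as a block. Over all 15 other fits it ranged from 0.06 to 0.31 with adjusted p values from 0.456 to 1. ADCY2 moved in the same way, from 0.06 ± 0.07 with surrogate variables to 0.14 with the litter as a block.

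The other tested genes showed smaller or less precise size estimates. PRKAR1B averaged 342 ± 33.2 CPM in SGA and 350 ± 62.9 CPM in AGA piglets (SD, n = 12 each), with a log2 fold change of -0.10 ± 0.05 (edgeR adjusted p = 0.760). Between littermates it differed by only -0.02 ± 0.28 (SD, n = 12 litters) and was higher in SGA in 5 of 12 litters. ADCY3 (43.1 ± 3.66 against 41.9 ± 3.46 CPM) and ADCY5 (168 ± 13.9 against 169 ± 11.8 CPM) had log2 fold changes of -0.0019 ± 0.05 and 0.0097 ± 0.04, and the sign of both changed with the fit. ADCY9 had 0.42 ± 0.25 (adjusted p = 0.805), while ADCY8 (0.02 ± 0.19) and CREB1 (0.18 ± 0.45) had standard errors larger than their estimates. At 8 to 35 reads per library for ADCY8, 3 to 28 for ADCY9 and 1 to 14 for CREB1, the estimates of these 3 genes did not pass.

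**Figure D4:**
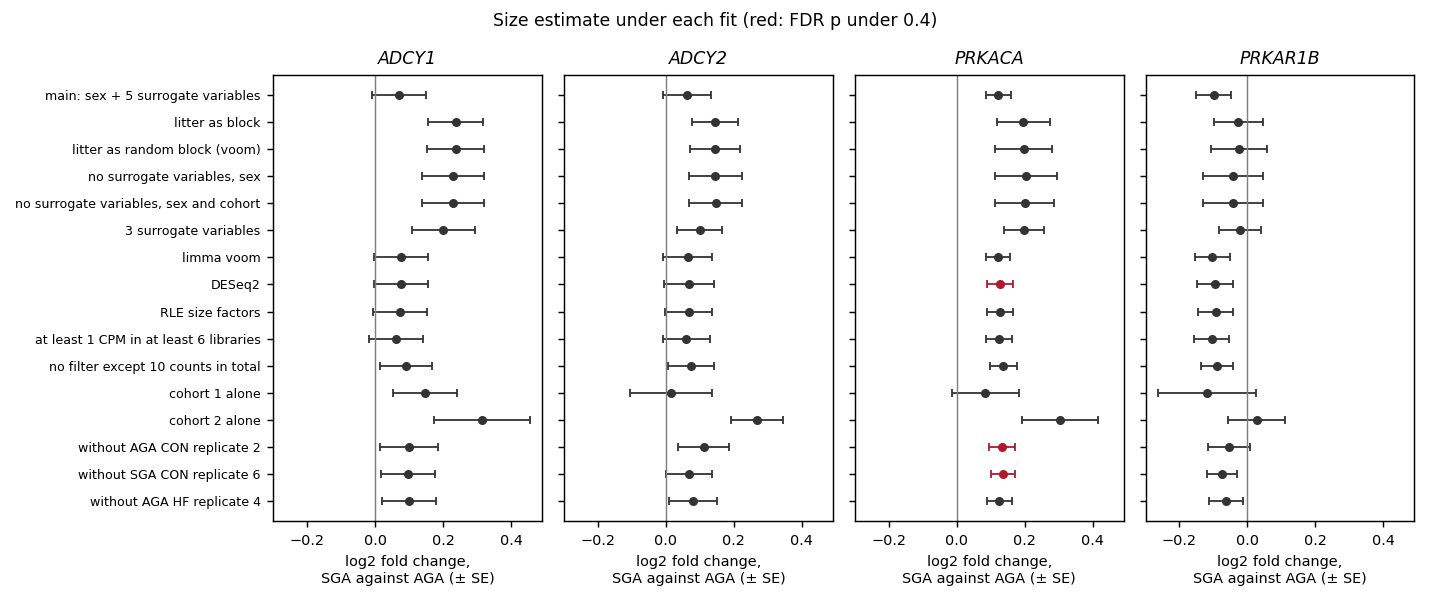
Log2 fold change of SGA against AGA with its SE for ADCY1, ADCY2, PRKACA and PRKAR1B under the main fit and 15 alternatives, with estimates past an adjusted p of 0.4 in red. PRKACA is past it with DESeq2, without AGA CON replicate 2 and without SGA CON replicate 6, and ADCY1 lies at 0.07 with 5 surrogate variables and at 0.24 with the litter as a block.

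The ratio of PRKACA to PRKAR1B was also compared between littermates, a measure chosen after the values had been seen. Its p values therefore come from the same values that led to the choice, and other gene pairs were not compared. The other PKA subunits, PRKAR1A among them, are not part of it. PRKACA CPM divided by PRKAR1B CPM ranged from 1.08 to 1.45 in AGA piglets (median 1.28) and from 1.23 to 2.33 in SGA piglets (median 1.38), and it needs no scaling between libraries. It was higher in the SGA littermate in 11 of 12 litters, by 0.22 ± 0.22 on the log2 scale (SD, n = 12, exact two-sided sign-flip p = 0.00244, not adjusted over genes). Leaving out each litter in turn gave differences from 0.17 to 0.25 and exact p values from 0.000977 to 0.00488. The cohorts gave 0.18 and 0.26. The group means were 1.30 ± 0.113 in AGA CON, 1.22 ± 0.112 in AGA HF, 1.54 ± 0.398 in SGA CON and 1.43 ± 0.190 in SGA HF (n = 6 each).

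The second question was the formula, HF against CON. ADCY5 was somewhat higher and PRKACA somewhat lower in HF piglets, and neither passed the threshold. None of the 9 genes was called for diet in the main fit, where 0.159% of all tested genes were called, and the smallest adjusted p among them was 0.564. At an unadjusted p under 0.05 the count was 2 of 9, against 7.10% of all tested genes. The median log2 fold change was 0.03 over the 9 genes and 0.0020 over all tested genes.

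ADCY5 averaged 162 ± 9.01 CPM in CON and 174 ± 13.2 CPM in HF piglets (SD, n = 12 each). CON litters had mean values from 156 to 171 CPM and HF litters from 157 to 185 CPM, so that the litters overlapped. The log2 fold change was 0.11 ± 0.04 (edgeR unadjusted p = 0.00681, adjusted p = 0.564). Over litter means the difference was 0.10 on the log2(CPM + 1) scale (exact permutation p over all splits of the 12 litters = 0.0563, adjusted p = 0.9995), with 0.06 in the first and 0.15 in the second cohort. Its direction was kept in all 15 other fits (0.07 to 0.14), in none of which it was called. The estimate was 0.15 ± 0.05 in SGA piglets (unadjusted p = 0.00838, adjusted p = 0.581) and 0.08 ± 0.05 in AGA piglets (adjusted p = 0.837), and the test of the difference between them gave an unadjusted p of 0.331 (adjusted p = 0.901). Striatal markers, which would accompany striatal tissue, summed to 207 to 353 CPM in CON and 216 to 341 CPM in HF libraries, with DRD1 under the filter, and their part in the ADCY5 difference was not tested.

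PRKACA averaged 493 ± 114 CPM in CON and 446 ± 53.7 CPM in HF piglets (n = 12 each). The log2 fold change was -0.10 ± 0.04 (edgeR unadjusted p = 0.0130, adjusted p = 0.612). Without AGA CON replicate 2 it was -0.12 and was called (adjusted p = 0.33), in a fit that called 2.55% of all tested genes, and without SGA CON replicate 6 it was -0.07 (adjusted p = 0.718, with 0.835% of all genes called). Without AGA HF replicate 4 it was -0.09 (adjusted p = 0.682, with 0.19% called). Over litter means the difference was -0.12 (exact permutation p = 0.240), with -0.02 in the first and -0.23 in the second cohort. With littermates treated as a random block the adjusted p was 0.897. The surrogate-variable fit treats littermates as independent for diet, although a litter received a single formula.

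Litter means of the other genes overlapped between formulas. CON litters spanned 378 to 513 CPM for ADCY1 and HF litters 357 to 499 CPM. For ADCY2 the spans were 60.1 to 84.7 and 62.0 to 79.9 CPM, for ADCY3 36.4 to 47.6 and 40.4 to 43.7 CPM, and for PRKAR1B 277 to 411 and 282 to 370 CPM. The exact permutation p values of these 4 genes ranged from 0.355 to 0.996. Over all tested genes, none passed an adjusted p of 0.4 in the exact test over litters, and 4.05% had an unadjusted exact p under 0.05. The main fit called 26 genes for diet.

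The third question was whether the size effect differed between formulas. None of the 9 genes was called for the interaction of size and diet, where 0.049% of all tested genes were called, and the smallest adjusted p was 0.638, for ADCY3. In CON piglets ADCY3 averaged 44.7 ± 4.07 CPM in SGA and 41.2 ± 4.80 CPM in AGA, and in HF piglets 41.4 ± 2.52 CPM in SGA and 42.6 ± 1.48 CPM in AGA (SD, n = 6 each). The AGA CON mean includes 31.6 CPM in AGA CON replicate 2. The interaction on the log2 scale was -0.23 ± 0.09 (edgeR unadjusted p = 0.0164, adjusted p = 0.638), made of 0.11 ± 0.06 in CON and -0.12 ± 0.06 in HF. It was -0.14 ± 0.10 without AGA CON replicate 2 (adjusted p = 0.776), -0.22 ± 0.08 without SGA CON replicate 6 (adjusted p = 0.548) and -0.21 ± 0.09 without AGA HF replicate 4 (adjusted p = 0.711). At an unadjusted p under 0.05 the count was 1 of 9, against 4.01% of all tested genes.

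In the 4 comparisons within one formula or one size, no gene of the 9 was called, against 0.129% of all tested genes for size in CON, 0.288% for size in HF, 0.0674% for diet in AGA and 0.0919% for diet in SGA piglets. These comparisons share samples. PRKACA came nearest: 0.18 ± 0.05 for SGA against AGA on HF (edgeR unadjusted p = 0.00245, adjusted p = 0.482) and -0.16 ± 0.05 for HF against CON in AGA piglets (unadjusted p = 0.00675, adjusted p = 0.564). Its size estimate on CON was 0.07 ± 0.05 (adjusted p = 0.856), and the interaction, 0.11 ± 0.07, did not pass (unadjusted p = 0.138, adjusted p = 0.822) and was negative in 6 of 15 other fits. Without AGA CON replicate 2, PRKACA was called for size on HF (0.20, adjusted p = 0.214) and for diet in AGA piglets (-0.19, adjusted p = 0.253), where 2.45% and 2.62% of all genes were called. Its size estimate on HF was also called without SGA CON replicate 6 (0.19, adjusted p = 0.288, with 1.60% of all genes called), with DESeq2 (0.18, adjusted p = 0.245, 0.827%) and with an adjustment over that contrast alone (adjusted p = 0.322, 1.44%).

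Marker genes of brain cell types moved with several of these transcripts. Across the 24 libraries the log2 level of PRKACA correlated with the summed excitatory neuron markers at r = 0.76, PRKAR1B at 0.69, ADCY3 at 0.59 and ADCY2 at 0.56. For ADCY1 r was 0.25 and for ADCY5 -0.04, and ADCY5 correlated at 0.44 with the oligodendrocyte and 0.45 with the oligodendrocyte progenitor sum. With the interneuron sum ADCY2 had r = 0.65, PRKAR1B 0.64, PRKACA 0.62 and ADCY3 0.37. With the neuronal sum PRKAR1B had 0.69, PRKACA 0.68, ADCY3 0.61 and ADCY2 0.57. With the astrocyte sum PRKAR1B had -0.61, ADCY2 -0.58, ADCY3 -0.50 and PRKACA -0.49. These are descriptions over libraries that share groups and litters. The excitatory neuron sum was 6698 to 8345 CPM in SGA (median 7818) and 5093 to 7967 CPM in AGA libraries (median 7225), with 1 of its 4 tested markers, CAMK2A, called higher in SGA (0.312% of all tested genes were). SLC17A7 and NEUROD2 had positive estimates and did not pass. The oligodendrocyte sum was 10132 to 20364 CPM in SGA (median 15265) and 11846 to 22368 CPM in AGA libraries (median 19570), with none of its 5 tested markers called and all 5 lower in the fit. Of the 14 marker lists, no other held a gene called for size in the main fit. With the litter as a block, the oligodendrocyte markers MBP (-0.32, adjusted p = 0.182) and MOBP (-0.30, adjusted p = 0.214) and the progenitor marker OLIG1 (-0.17, adjusted p = 0.325) were called lower in SGA and CAMK2A was not called (adjusted p = 0.690), in a fit that called 2.57% of all tested genes. Of the 4 tested progenitor markers, 3 had positive size estimates in the main fit (list median 0.05, range -0.10 to 0.23). The part of these cell types in the differences of PRKACA and ADCY1 was not tested.

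For each of the 9 tested transcripts the most alike gene was taken as the highest r over all named tested genes. Such an r is raised by the selection itself, and its background was not computed. Over the 24 libraries the named gene most like PRKACA was VAMP2, a synaptic vesicle protein (r = 0.98), and that most like PRKAR1B was CD99L2 (0.93). For ADCY1 it was DPYSL5, a collapsin response mediator protein of growing neurons (0.93), for ADCY2 the cytoskeletal adducin ADD2 (0.78), for ADCY3 the Integrator subunit INTS11 (0.81) and for ADCY5 PLET1 (0.77), which averaged only 0.460 CPM. For the low genes, ADCY8 paired with RNF20 (0.75), ADCY9 with CCDC40 (0.80) and CREB1 with KIAA1429 (0.60). Within the set, ADCY3 and PRKAR1B were the most alike (r = 0.67), and PRKACA and PRKAR1B had r = 0.53 over libraries and 0.70 over the littermate differences.

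The wider cAMP pathway was read from 13 lists of 163 symbols by role, written with earlier results of these data known. The counts below are therefore descriptions and no independent check. Of these, 155 had an entry and 137 were tested. For size, 4 rose in SGA piglets and none fell, against 0.312% and 0.165% of all tested genes, and 24 of the 137 had an unadjusted p under 0.05, against 10.6% of all tested genes. The median log2 fold change for size was 0.02 over the 137 genes. For diet none was called, against 0.159% of all tested genes, and 17 of the 137 had an unadjusted p under 0.05, against 7.10%. The median was -0.0097 and the smallest adjusted p 0.428. None was called for the interaction, against 0.049% of all tested genes.

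**Figure D5:**
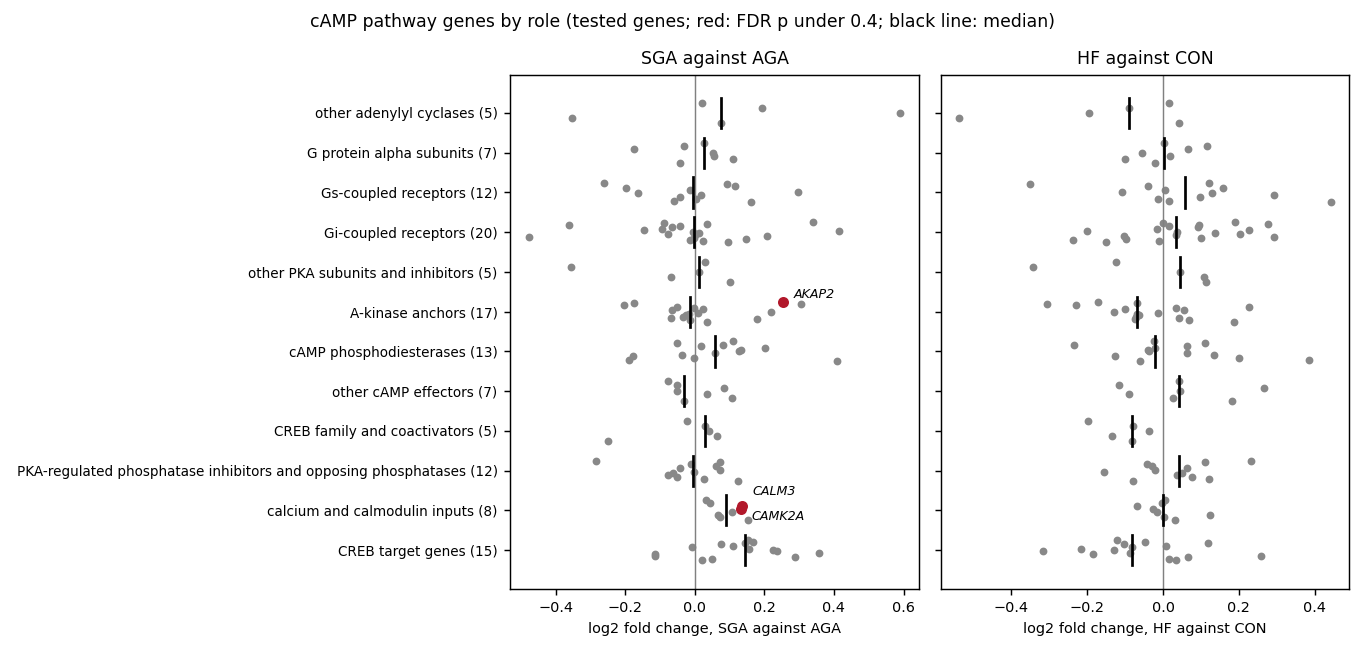
Log2 fold change of each tested cAMP pathway gene by role, for SGA against AGA (left) and HF against CON (right), with genes past an adjusted p of 0.4 in red and list medians as black lines. AKAP2, CALM3 and CAMK2A are past it for size, no gene is for diet, and 1 of the 13 lists is not drawn.

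Described here are 3 of the 4 genes that rose, a PKA anchor and a pair of calcium and calmodulin genes. AKAP2, a scaffold that anchors PKA, averaged 124 ± 19.2 CPM in SGA and 99.5 ± 7.63 CPM in AGA piglets (n = 12 each), with a log2 fold change of 0.25 ± 0.05 (edgeR adjusted p = 0.224). It was higher in the SGA littermate in 12 of 12 litters (exact p = 0.000488, the smallest the test can give). CALM3, one of the genes encoding calmodulin, averaged 6797 ± 1150 against 5765 ± 849 CPM (0.13 ± 0.03, adjusted p = 0.224, 9 of 12 litters). CAMK2A, a calcium and calmodulin-dependent kinase of excitatory synapses, averaged 3611 ± 292 against 3345 ± 310 CPM (0.13 ± 0.03, adjusted p = 0.308, 10 of 12 litters). Without AGA CON replicate 2, SGA CON replicate 6 or AGA HF replicate 4 these 3 were still called, AKAP2 with adjusted p values from 0.118 to 0.242, CALM3 from 0.119 to 0.201 and CAMK2A from 0.203 to 0.269. With the litter as a block, AKAP2 (0.29) was called again, while CALM3 (adjusted p = 0.416) and CAMK2A (adjusted p = 0.690) were not. In that fit 3 others were called: WASF1 (0.33) and CRH (0.54) higher and PPP1R1A (-0.35) lower. The same fit called 2.57% of all tested genes.

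On the receptor and G protein side no gene was called for size or diet, against 0.478% and 0.159% of all tested genes. Among 7 G protein alpha subunits, the inhibitory GNAO1 had 0.11 ± 0.04 for size (adjusted p = 0.574) and GNAI1 -0.17 ± 0.07 (adjusted p = 0.683). Of 12 tested receptors that raise cAMP, the serotonin receptor HTR6 had 0.30 ± 0.18 and the adenosine receptor ADORA2A -0.20 ± 0.13 for size, and the beta-adrenergic receptor ADRB1 had -0.35 ± 0.20 for diet. Of 20 tested receptors that lower cAMP, the GABA-B subunit GABBR1 (0.15 ± 0.06, adjusted p = 0.673) and the alpha-adrenergic receptor ADRA2A (0.42 ± 0.19, adjusted p = 0.714) were each higher in the SGA littermate in 10 of 12 litters without passing (at least 10 litters in 4.43% of all tested genes), and the somatostatin receptor SSTR1 had 0.20 ± 0.08 for diet. Among the remaining cyclases and cyclase-associated proteins, ADCY6 had 0.19 ± 0.08 for size (adjusted p = 0.663), ADCY7 0.59 ± 0.35, and CAP1 -0.54 ± 0.43 for diet.

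Downstream of cAMP the same held apart from the anchors. Of 17 tested A-kinase anchors AKAP2 alone was called for size, against 0.478% of all tested genes, and WASF1 had 0.18 ± 0.07 for size (adjusted p = 0.608). Neither the other PKA subunits and inhibitors (5 tested, with the inhibitor PKIG at -0.07 ± 0.05 and PRKAR2A at -0.35 ± 0.38 for size) nor the 13 phosphodiesterases (PDE4A 0.20 ± 0.09 and PDE10A 0.41 ± 0.19 for size, PDE2A -0.24 ± 0.11 for diet) held a call. The same was true of 7 other cAMP effectors (the channel HCN4 0.11 ± 0.07 and the exchange factor RAPGEF3 -0.08 ± 0.07 for size, RAPGEF4 -0.12 ± 0.06 for diet). CREB relatives and coactivators (5 tested) were all negative for diet, from -0.20 to -0.04, led by CREM (-0.20 ± 0.08, adjusted p = 0.659). None passed, and 50.8% of all tested genes had a positive diet estimate. For size CRTC3 had -0.25 ± 0.21 and CRTC2 0.06 ± 0.06. Of 12 tested phosphatases and their inhibitors, PPP1R1A (-0.28 ± 0.11) and PPP2CB (-0.08 ± 0.04) had the smallest p for size and PPP1CC (-0.16 ± 0.07) for diet.

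All 8 tested calcium and calmodulin input genes, CALM3 and CAMK2A among them, had positive size estimates, with a list median of 0.09. Among 15 tested CREB target genes 12 had positive size estimates, with a list median of 0.14, and none passed. Over all tested genes 49.2% had a positive size estimate. JUNB had 0.17 ± 0.06 (adjusted p = 0.621) and the clock gene PER1 0.16 ± 0.06 (adjusted p = 0.629). PER1 averaged 308 ± 85.1 CPM in CON and 259 ± 36.2 CPM in HF piglets (-0.22 ± 0.06, adjusted p = 0.428), the nearest of the 137 genes to a call for diet.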

How the data were processed

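Hippocampal poly(A) RNA from 24 piglets was sequenced as stranded libraries. Per the labels and the study's methods, the authors trimmed reads with Trimmomatic 0.33, aligned them with STAR 2.5.2a to Sscrofa10.2 and counted reverse-stranded exon reads per gene with featureCounts of Subread 1.5.0. The deposited values are raw counts per gene. The entry without a gene ID (0.613 to 1.62% of reads) was left out. The study's methods give an average RNA quality number for the samples, and put its value down to RNA not yet spliced. The deposited files hold no RNA quality value per library. The bearing of RNA quality on levels compared per length was not tested. Symbols came from a gene name table, matched for 23036 of 38882 gene IDs.

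Genes with 1 CPM in at least 3 libraries were tested with edgeR 4.0.16 (R 4.3.3): TMM scaling, 4 groups, sex and 5 surrogate variables (sva 3.50.0, log2 CPM with prior count 2), 7 contrasts, Benjamini-Hochberg adjustment over all genes and contrasts together. Exact two-sided tests on log2(CPM + 1) used littermate differences and litter means, adjusted over all tested genes. Alternatives used limma 3.58.1, DESeq2 1.42.0, the litter as a block, other filters and scalings, and single cohorts. Fits were tested on simulated data. The labels give the same pair number to littermates, whose deviations from group means correlated at 0.154 on average (0.0143 to 0.329, 12 pairs). No libraries had identical counts. The 10 genes, the pathway lists and the markers were chosen with earlier results of these data known. Named pathway genes were those called (up to 4 per list) and, per list, the 2 with the smallest p for size and the 1 for diet. The genes named for 1 of the lists are not reported here. Of all named tested genes, the 1 with the highest r was given for each member. Depth limits cover counting error only.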

Additional observations from a re-analysis of the deposited data

Results flagged for a closer look

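In 5 of the 40 combinations of gene and group, 1 piglet lay farther from the other 5 than Dixon's 95% critical value for 6 samples allows, where chance gives about 1 in 20. PRKACA was 817 CPM in SGA CON replicate 6, with the next highest at 542 CPM, and 320 CPM in AGA CON replicate 2, with the next lowest at 454 CPM. AGA CON replicate 2 also had the lowest ADCY3 of its group, 31.6 CPM against 41.9 CPM for the next. ADCY1 was 507 CPM in AGA HF replicate 6 (next 353 CPM) and ADCY9 was 2.84 CPM in AGA HF replicate 3 (next 1.17 CPM).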

How the results depend on the processing

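With the replicate block (litter pair as block), 0 of the 9 genes were called for size or for the interaction, as in the main fit. Of the 137 tested pathway genes 5 were called for size against 4, beside 2.57% against 0.478% of all tested genes. For size, 1 of the 9 genes, PRKACA, was called with DESeq2 (0.13) and with the FDR over each contrast alone (0.12), and, in alternatives chosen after seeing the data, without AGA CON replicate 2 (0.13) and without SGA CON replicate 6 (0.14). For diet 1 gene, PRKACA, was called without AGA CON replicate 2 (-0.12). The pairwise comparisons then held 1 to 2 calls, and 1 with DESeq2 and with the FDR over each contrast alone. Without AGA HF replicate 4, also chosen after seeing the data, none was called. Of 132 size estimates of the 9 genes in 15 other fits 24 changed sign, of 132 diet estimates 36 and of 132 interaction estimates 13.

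For size, ADCY3 reversed to 0.0315 with the replicate block, 0.0324 with the random replicate block, 0.0306 without surrogate variables (with and without cohort), 0.0277 with 3 surrogate variables, 0.0031 with DESeq2, 0.0033 with RLE size factors, 0.0090 without the filter, 0.0312 and 0.0210 in cohorts 1 and 2, and 0.0186, 0.0083 and 0.0258 without AGA CON replicate 2, SGA CON replicate 6 or AGA HF replicate 4. ADCY5 reversed to -0.0251 with the replicate block, -0.0250 with the random one, -0.0258 and -0.0256 without surrogate variables (without and with cohort), and -0.0212 and -0.0404 in cohorts 1 and 2. ADCY8 reversed to -0.0089 with 3 surrogate variables, -0.22 in cohort 2 and -0.0042 without SGA CON replicate 6 (0.0128 without AGA CON replicate 2 and 0.0570 without AGA HF replicate 4), PRKAR1B to 0.0271 in cohort 2 and CREB1 to -0.0619 with limma voom. The interaction of PRKACA reversed to -0.0880 with the replicate block, -0.0899 with the random one, -0.10 and -0.11 without surrogate variables (without and with cohort), and -0.0733 and -0.13 in cohorts 1 and 2. The causes were not tested.

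The 4 size calls in the pathway lists (0.478% of all tested genes were called) became 2 with the random replicate block (0.355% of all) and 2 without surrogate variables but with sex and cohort (0.649%), 0 with sex alone (0.0796%), 7 with DESeq2 (1.29%), 15 with the FDR over each contrast alone (7.35%), 0 at an FDR under 0.05 and in either cohort alone (0% in each), 9 without AGA CON replicate 2 (2.35%), 8 without SGA CON replicate 6 (2.51%) and 5 without AGA HF replicate 4 (0.792%). For diet, against 0 calls (0.159% of all), 1 was called with 3 surrogate variables (ATP2B2, 0.545%), 1 with DESeq2 (0.539%) and 1 without the filter (0.215%; PER1 in both), and 8 without AGA CON replicate 2 (2.55%). Leaving out each litter gave 0 to 3 genes under an FDR p of 0.4 in the littermate test, with 0 when pair 4, 7, 9, 10 or 12 was left out.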
